A study of Cannabis sativa with 6 samples.

Results

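The mitochondrial genes nad1 (A5N79_gp01), nad4 (A5N79_gp05), sdh3 (A5N79_gp02) and cox1 (A5N79_gp04) encode parts of 3 complexes of the respiratory electron transport chain. They were taken by their row names, 4 of the 34253 genes counted. All 4 were far higher in heated leaves, 44.8 to 61.0 times the control level by mean counts per 1000000 gene counts (CPM). The ratios between them overlapped between the groups in every pair. Their control counts were only 0 to 82 per library, so the overlap does not show that the ratios were unchanged.

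The libraries came from leaves of Cannabis sativa cv. Pink Pepper, young plants raised from seed in potting soil, with 15 days of germination before they were potted on and grown further. The heat group (3 libraries) had spent 7 days at 45 ± 2 °C in a growth chamber, and the control group (3 libraries) 7 days at 23 ± 1 °C. Both were held at 40 ± 4% relative humidity, and no other treatment is named for either group. The labels do not say how many plants went into a library or whether libraries came from separate plants. Accordingly, a p-value here speaks only of library-to-library spread, some of which may be technical. The leaf label was not checked against marker genes, since the nuclear rows carry locus numbers and plastid genes were not analysed here.

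The inner mitochondrial membrane holds the electron transport chain. Complex I (NADH dehydrogenase) takes electrons from NADH, complex II (succinate dehydrogenase) takes them from succinate in the citric acid cycle, and both pass them to ubiquinone. Complex III hands them on to cytochrome c, and complex IV (cytochrome c oxidase) passes them to oxygen. Complexes I, III and IV move protons across the membrane, and complex II does not. Each complex is built from subunits encoded in both the mitochondrial and the nuclear genome. In plant mitochondria, a poly(A) tail marks a transcript for decay, and most transcripts lack a stable one. Libraries made by poly(A) selection therefore capture a part of the mitochondrial RNA.

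The heat libraries held 28492832 to 30012772 gene counts, and the control libraries 30766680 to 36584253. The 35 mitochondrial protein-coding genes together took 806 ± 4.98 CPM in heat and 31.3 ± 7.25 CPM in control (SD, n = 3 each). Outside annotated exons lay 6.05% ± 0.108 of all reads listed for heat libraries and 1.79% ± 0.0634 for control libraries. Alignments to several places were 5.07% ± 0.0735 in heat and 4.22% ± 0.0442 in control. Reads ambiguous between genes went the other way, with 1.75% ± 0.0187 in heat and 2.73% ± 0.00877 in control. The share assigned to genes was 84.1% ± 0.104 in heat and 88.8% ± 0.178 in control. These shares moved with every result on levels given here, and their part in those results was not tested. In bulk leaf RNA, more cells or mitochondria of a kind and more RNA in each cannot be told apart. How much mitochondrial RNA passed poly(A) selection was not measured, and a difference in that step between the groups cannot be told apart from a difference in the leaf.

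In complex I, nad1 encodes a membrane subunit at the junction with the peripheral arm, close to where ubiquinone binds. It had 812, 698 and 742 counts in the heat libraries and 19, 24 and 10 counts in the control libraries. Scaled to the library these are 27.1, 24.2 and 26.0 CPM in heat, against 0.618, 0.726 and 0.273 CPM in control. The lowest heat library stood 33.3 times above the highest control library. The log2 fold change was 5.66 ± 0.17 (SE; edgeR quasi-likelihood test, adjusted p = 1.74e-24). In flowering plants the nad1 message is joined from separate transcripts by trans-splicing, and which of its exons entered the count is not given in the sources used here.

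The second complex I gene, nad4, encodes one of the antiporter-like subunits of the membrane arm, which take part in proton pumping. Its counts were 1368, 1327 and 1220 in heat and 28, 21 and 24 in control. These correspond to 45.6, 46.0 and 42.8 CPM in heat and 0.910, 0.636 and 0.656 CPM in control. Its lowest heat library stood 47.0 times above its highest control library, the widest gap of the 4 genes. It also had the largest log2 fold change of them, 6.0 ± 0.12 (SE; edgeR adjusted p = 1.66e-29).

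In complex II, sdh3 encodes a membrane anchor subunit of succinate dehydrogenase, which takes part in binding haem and ubiquinone. In many other plants this gene has moved to the nucleus. It was the most thinly counted of the 4 genes, with 279, 191 and 221 counts in heat and 4, 0 and 10 counts in control. That gives 9.30, 6.62 and 7.76 CPM in heat, against 0.130, 0 and 0.273 CPM in control, where the count of 0 allows up to 0.0908 CPM. All heat libraries lay above all control libraries, and the control libraries differed among themselves by more than their mean. The log2 fold change was 5.85 ± 0.34 (SE; edgeR adjusted p = 3.29e-15). It was 6.94 without control replicate 3, 5.26 without control replicate 2 and 6.56 by limma-voom. From summed counts, 691 against 14, the rise was 56.7-fold with an exact counting interval of 33.6 to 104.

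In complex IV, cox1 encodes the catalytic core of cytochrome c oxidase, which binds the haems and the copper at which oxygen is reduced. It had 2694, 2530 and 2526 counts in heat and 50, 82 and 67 counts in control, the most deeply counted of the 4 genes. As CPM, the heat libraries stood at 89.8, 87.7 and 88.7, and the control libraries at 1.63, 2.48 and 1.83. The heat libraries differed by little, with a coefficient of variation of 1.17%, against 22.6% in control. The log2 fold change was 5.54 ± 0.08 (SE; edgeR adjusted p = 1.84e-32), the smallest and most precise of the 4.

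**Figure D1:**
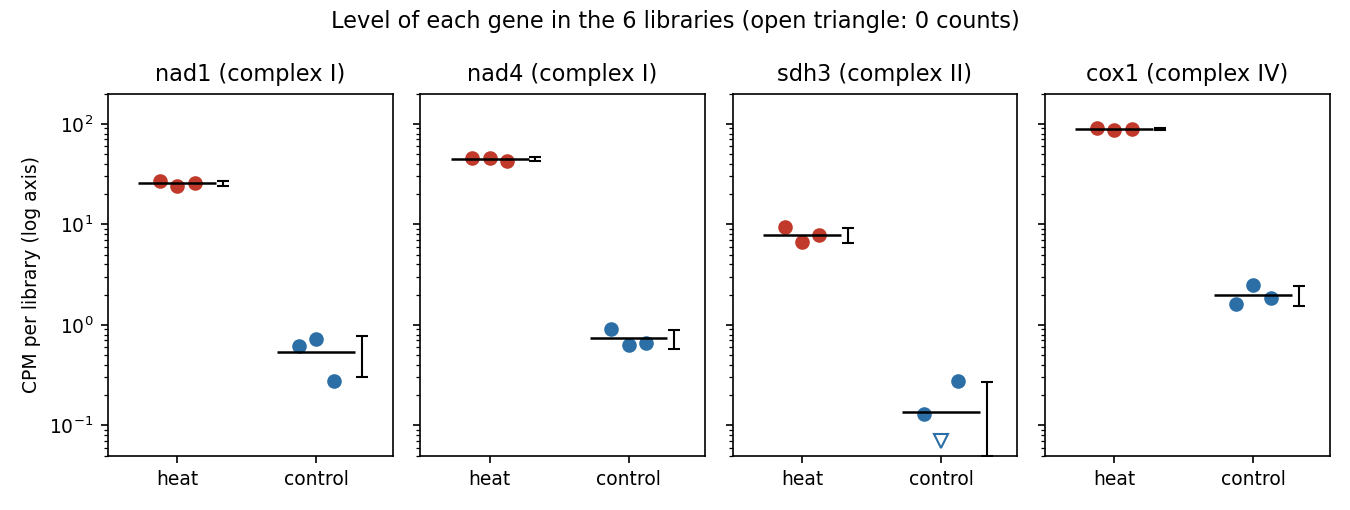
Level of each gene in counts per 1000000 gene counts (CPM, log axis) in 3 heat (red) and 3 control (blue) libraries, with the mean (line) and SD (bar). Every heat library lies above every control library of the same gene. The open triangle marks the control library with 0 counts of sdh3, and the SD bar of sdh3 in control, which reaches below 0, ends at the axis.

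Of the 4 genes, 4 rose, where 44.3% of the 17727 tested genes rose. Heat libraries lay wholly above control libraries for 4 of 4, against 43.3% of the tested genes. A log2 fold change of at least 5.54, that of cox1, was reached by 3.51% of the tested genes, and the median over all tested genes was -0.05. All 4 passed the filter on low counts. Of the control libraries, 3 reached its level of 0.329 CPM for nad4 and cox1, 2 for nad1 and 0 for sdh3. So nad1 and sdh3 passed through their heat libraries alone and could not have been called lower in heat.

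Relative spread among replicates was larger in control, where the counts were small. Set against pure counting error, at which the value is near 1, chi-square per degree of freedom in control was 3.71 for nad1, 1.03 for nad4, 4.67 for sdh3 and 3.28 for cox1. In heat it was 2.40 for nad1, 1.91 for nad4, 6.72 for sdh3 and 0.359 for cox1. The gene sdh3 was well above 1 in both groups, and nad4 in control and cox1 in heat were at or below about 1. Which control library was lowest differed by gene, replicate 3 for nad1, replicate 2 for nad4 and sdh3, and replicate 1 for cox1.

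The other mitochondrial genes of the chain rose too, over a wider range. Of the 10 others in the files, 10 rose and 0 fell, where 44.3% of all tested genes rose. Of these, nad6, nad7, nad9 and sdh4 passed the filter on low counts only by virtue of heat counts, which made a lower call impossible. Their log2 fold changes had a median of 4.39, against 5.75 for the 4 genes and 5.29 for the 35 mitochondrial protein-coding genes, all of which rose. By size of log2 fold change among the 35, nad4 ranked 6, sdh3 7, nad1 11 and cox1 13. The rise was shared by the whole set of mitochondrial protein-coding genes. Many of them, such as ccmC, ccmB and rps7, also passed the filter through heat counts alone and could not have been called lower. The lists were known to rise from earlier results on these libraries, so their counts are no independent evidence of direction.

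Within complex I the 6 other genes fell into a higher and a lower range. The gene nad2, another antiporter-like subunit, stood at 43.4 ± 0.957 CPM in heat and 0.826 ± 0.212 CPM in control (SD, n = 3 each), which is 5.76 ± 0.12 on the log2 scale (SE; edgeR adjusted p = 6.62e-29). For nad7 and nad9, subunits of the peripheral arm, the log2 fold changes were 5.74 ± 0.30 and 5.44 ± 0.27, close to those of nad1 and nad4. Their control counts were uneven, at 5, 48 and 41 for nad7 and 9, 17 and 2 for nad9. Chi-square per degree of freedom in control was 15.2 and 6.60. The low nad7 count of control replicate 1 also enters the complex I sums and ratios below. The small membrane subunits nad4L and nad6 rose by 4.49 ± 0.21 and 3.69 ± 0.32, and nad5, also an antiporter-like subunit, by 4.29 ± 0.12. These ranges were drawn after the values were seen, and the difference between them was not tested.

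In complexes II to IV the partners of sdh3 and cox1 did not all follow them. The other anchor subunit gene of complex II, sdh4, stood at 3.38 ± 0.368 CPM in heat and 0.421 ± 0.112 CPM in control, a log2 difference of 3.06 ± 0.30 (SE; edgeR adjusted p = 5.27e-11). In complex IV, cox2, which carries the copper centre that receives electrons from cytochrome c, rose by 5.29 ± 0.12, and cox3, a core subunit without a redox centre, by 3.55 ± 0.16. Complex III is represented by cob (cytochrome b), which rose by 3.96 ± 0.16. In the reference table cox3 and sdh4 overlap, so reads in the overlap can be counted as ambiguous. Whether this bears on their values was not tested. None of the 4 genes overlaps a neighbour named below in that table.

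**Figure D2:**
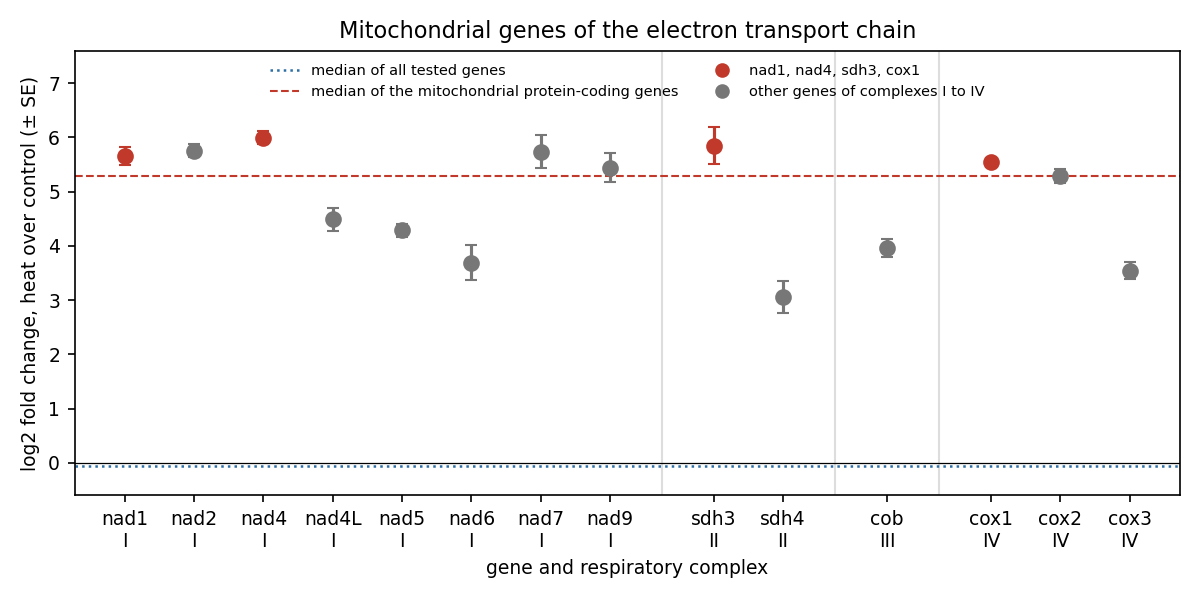
Log2 fold change of heat over control (edgeR, ± SE) for the 14 counted mitochondrial genes of complexes I to IV, grouped by complex. The genes nad1, nad4, sdh3 and cox1 (red) lie between 5.54 and 6.0, above the dashed median of 5.29 for the 35 mitochondrial protein-coding genes, and the others (grey) between 3.06 and 5.76.

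Whether the complexes kept their balance was compared through the ratio of 2 genes within a library, which no library scaling can change. These are ratios of counts, not divided by transcript length, so their value in a group does not give a ratio of transcripts, but their change between groups does not depend on length. There were 11 such ratios, with p-values adjusted over them. The exact permutation test cannot give a p below 0.1 with 3 libraries against 3, so its p-values could not pass 0.05 and do not show that the balance was kept. The values in each library and the counting intervals are therefore given beside them.

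Between the complex I genes, nad1/nad4 was 0.594, 0.526 and 0.608 in heat and 0.679, 1.14 and 0.417 in control. The 3 heat libraries agreed closely and lay inside the range of the control libraries. From summed counts the heat ratio was 0.792 times the control ratio, with an exact counting interval of 0.546 to 1.16. The mean difference in log2 ratio was -0.27 (exact permutation test, p = 0.7, adjusted p = 0.9).

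Between complexes I and IV, nad4/cox1 was 0.508, 0.525 and 0.483 in heat and 0.560, 0.256 and 0.358 in control. One control library lay above the heat range and the other two below it. From summed counts the heat ratio was 1.38 times the control ratio, with a counting interval of 1.04 to 1.83, while over libraries the mean log2 difference of 0.42 was smaller than the SD of the control libraries, 0.56 (exact permutation test, p = 0.4, adjusted p = 0.88). The interval that leaves out equality covers counting error only, and the spread of the control libraries took in all heat values. For nad1/cox1 the values were 0.301, 0.276 and 0.294 in heat and 0.380, 0.293 and 0.149 in control, a summed ratio 1.09 times that of control with an interval of 0.799 to 1.51. With nad1 and nad4 summed over cox1, the ratio was 0.809, 0.800 and 0.777 in heat and 0.940, 0.549 and 0.507 in control, 1.26 times higher by summed counts (interval 0.998 to 1.59; exact permutation p = 0.4, adjusted p = 0.88).

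Ratios to the complex II gene were the least certain, because sdh3 had 14 counts in the control group. The ratio nad4/sdh3 was 4.90, 6.95 and 5.52 in heat, against 7.00 and 2.40 in control replicates 1 and 3 and none in replicate 2. For nad1/sdh3 the heat values were 2.91, 3.65 and 3.36, against 4.75 and 1.00 in those control replicates. The heat values lay between the control values in both cases. By summed counts the heat ratio was 1.09 times the control ratio for nad4/sdh3, with a counting interval of 0.563 to 1.96, and 0.861 times for nad1/sdh3, with an interval of 0.438 to 1.59. For sdh3/cox1 it was 1.27 times, with an interval of 0.733 to 2.37. With 0.5 added to each count, the mean log2 difference of sdh3/cox1 was 1.01 (exact permutation p = 0.9, adjusted p = 0.9), and it became -0.42 without control replicate 2, the library with no count of sdh3. The counting interval of sdh3/cox1 thus reaches 2.37 times. Spread of sdh3 among libraries went beyond counting error, with chi-square per degree of freedom of 4.67 in control and 6.72 in heat. These libraries therefore do not limit the change to that value.

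**Figure D3:**
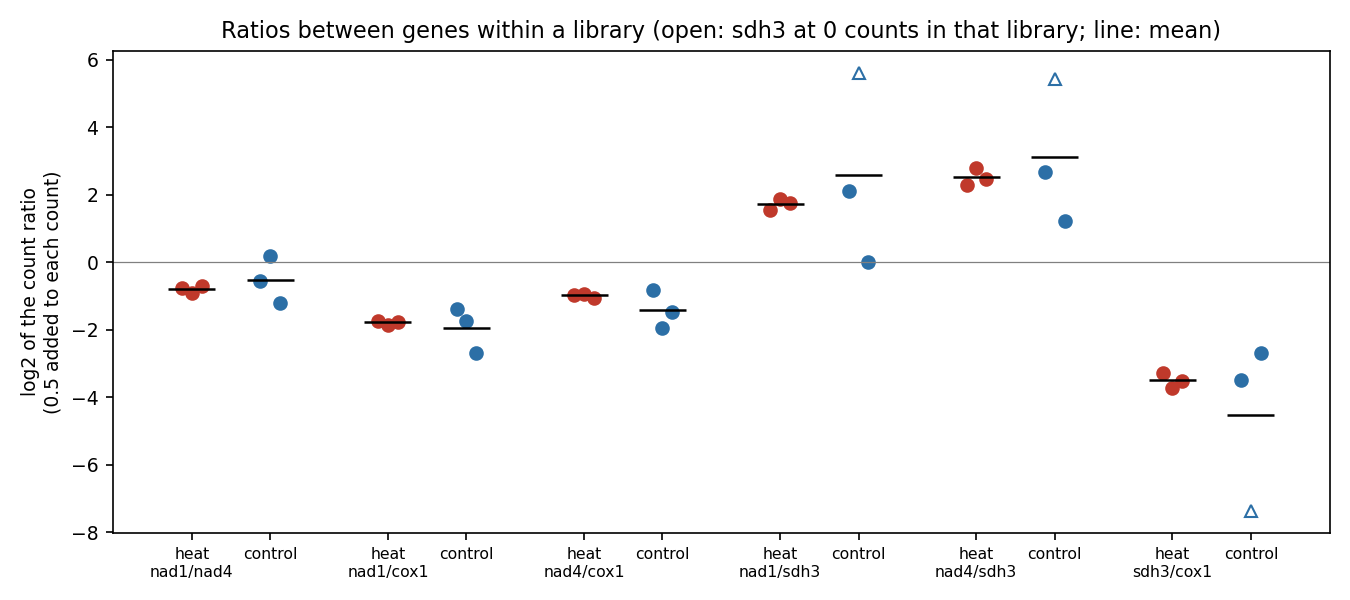
Log2 of the count ratio between 2 genes within each heat (red) and control (blue) library, with 0.5 added to each count, and the mean (line). Heat libraries cluster tightly in each pair, and the control libraries spread around or across them. Open triangles mark control replicate 2, where sdh3 had 0 counts and the value rests on the added 0.5.

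When all mitochondrial genes of a complex among the 35 counted were summed, the complexes differed more than the 4 genes did. The complex I gene nad3 was not among the 35 and is missing from the sums. Complex I (8 genes) stood at 222 ± 5.38 CPM in heat and 5.90 ± 1.58 CPM in control, 37.7 times higher. Complex II (2 genes) stood at 11.3 ± 1.17 CPM in heat and 0.555 ± 0.0417 CPM in control, 20.3 times higher. Complex IV (3 genes) stood at 139 ± 0.910 CPM in heat and 4.27 ± 0.915 CPM in control, 32.5 times higher (SD, n = 3 each).

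The ratio of all complex I to all complex II counts was 18.1, 21.1 and 20.3 in heat and 8.31, 13.7 and 9.82 in control. Every heat library lay above every control library, by 1.85 times from summed counts (counting interval 1.37 to 2.46; exact permutation p = 0.1, the smallest possible, adjusted p = 0.55). All complex II over all complex IV was 0.0900, 0.0746 and 0.0783 in heat and 0.136, 0.102 and 0.164 in control, again without overlap, and 0.620 times the control ratio by summed counts (interval 0.465 to 0.841; exact permutation p = 0.1, adjusted p = 0.55). All complex I over all complex IV overlapped between the groups and was 1.15 times the control ratio (interval 1.01 to 1.30; exact permutation p = 0.3, adjusted p = 0.88). Counts of complex II were thus lower relative to complexes I and IV in every heat library when sdh4 was included. The exact permutation test cannot call this separation with 3 libraries a group, and the groups overlapped when sdh3 alone stood for complex II. It was not counted how often ratios of other genes separate the groups, so the separation is not shown to be particular to complex II. Its gene sdh4 overlaps cox3 in the reference table, and whether this bears on the sums was not tested.

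Within complexes, 3 ratios were taken, chosen after the data were seen. They reuse the counts of the comparisons above and are not separate evidence of a contrast. Of the genes used, sdh4 and cox3 overlap each other in the reference table, and whether this bears on the ratios was not tested. The ratio of sdh3 to sdh4 was 2.82, 1.75 and 2.54 in heat and 0.333, 0 and 0.833 in control. It was 7.03 times higher in heat by summed counts, with a counting interval of 3.69 to 14.1 (exact permutation p = 0.1, the smallest possible, adjusted p = 0.15 over the 3). The mean log2 difference was 3.52, and it came to 2.07 with control replicate 2 left out and 4.55 with control replicate 3 left out. The ratio of cox1 to cox2 and cox3 together was 1.79, 1.70 and 1.79 in heat and 0.735, 0.872 and 1.00 in control, 2.03 times higher (interval 1.66 to 2.47; exact permutation p = 0.1, adjusted p = 0.15). Both ratios separated the groups without overlap. Ratios of other gene pairs were not counted in this way, so the separation is not shown to be particular to these genes. For nad1 and nad4 over the 6 other complex I genes the values were 0.466, 0.472 and 0.458 in heat and 0.547, 0.223 and 0.187 in control, which overlapped (1.74 times by summed counts, interval 1.42 to 2.14; exact permutation p = 0.4, adjusted p = 0.4).

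Among all mitochondrial protein-coding counts, the 4 genes held a larger share in heat. Together they made up 21.2%, 20.4% and 20.6% of these counts in heat and 12.8%, 9.74% and 10.5% in control, without overlap (exact permutation test, p = 0.1, the smallest possible). Other sets of 4 mitochondrial genes were not compared in this way, so the separation is not shown to be particular to these. The summed level of the 4 genes was 167 ± 3.96 CPM in heat and 3.39 ± 0.415 CPM in control, 49.4 times higher (exact permutation test, p = 0.1). The 31 other genes stood at 639 ± 2.17 CPM in heat and 27.9 ± 6.90 CPM in control, 22.9 times higher. In such sums the abundant genes weigh most. Single genes among the 31 rose both less and more than the 4, such as atp1 by 3.93 and matR by 7.01 on the log2 scale. By that measure the 4 ranked from 6 to 13 among all 35.

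The gene cox1 took 11.1%, 10.9% and 11.1% of the mitochondrial protein-coding counts in heat and 6.35%, 6.29% and 6.36% in control. Its shares lay close together within each group, although the summed mitochondrial level of the control libraries ranged from 25.6 to 39.5 CPM. The control shares rest on 50, 82 and 67 counts. From summed counts the control share was 6.33%, with an exact counting interval of 5.50% to 7.23%. The control values lay far closer together than that interval, so their closeness does not show that the share was constant. For nad4 the share was 5.62%, 5.71% and 5.34% in heat and 3.55%, 1.61% and 2.28% in control. For nad1 it was 3.33%, 3.01% and 3.25% in heat and 2.41%, 1.84% and 0.949% in control. These 3 genes separated the groups (exact permutation p = 0.1 each, adjusted p = 0.133 over the 4 genes). How many of the other mitochondrial genes separated them by share was not counted, so the separation is not shown to be particular to these 3. The share of sdh3, 1.15%, 0.823% and 0.968% in heat and 0.508%, 0% and 0.949% in control, overlapped between the groups (exact permutation p = 0.2, adjusted p = 0.2).

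**Figure D4:**
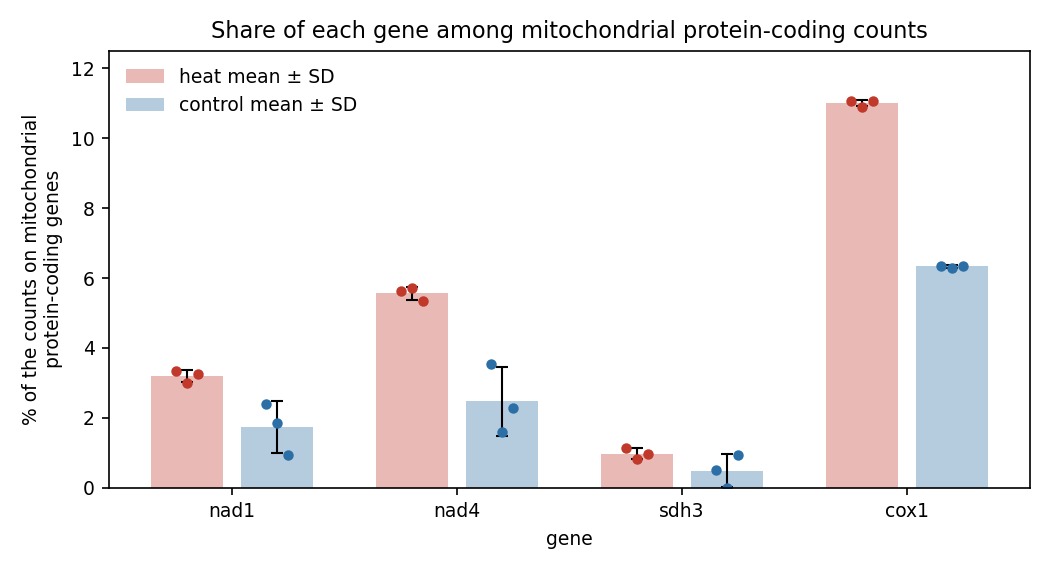
Share of each gene among the counts on the 35 mitochondrial protein-coding genes, in % per library (points), with the mean and SD of 3 heat (red) and 3 control (blue) libraries. The shares of nad1, nad4 and cox1 do not overlap between the groups, and those of sdh3 do.

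Genes beside the 4 on the mitochondrial genome did not share 1 level of change. By the order of genes in the reference table, ccmFn, a gene of cytochrome c maturation, lies next to nad4 and rose by 7.28 ± 0.22 on the log2 scale (SE; edgeR adjusted p = 4.50e-24), above that of nad4. The ribosomal protein gene rps13 lies next to cox1 and rose by 4.65 ± 0.38, and sdh3 lies between rrnS, the small ribosomal RNA, with 5.71 ± 0.39, and nad2, with 5.76 ± 0.12. The tRNA gene trnH-GTG, listed beside nad1, had 1, 3 and 1 counts in heat and 2, 1 and 1 counts in control. On the other sides, trnG-GCC beside nad4 had 0 counts in every library, which allows up to 0.105 CPM in the shallowest, and trnQ-TTG beside cox1 had 4, 2 and 0 counts in heat and 0 in each control library. The protein-coding and rRNA neighbours rose, and the tRNA neighbours had too few counts to be tested. Among the neighbours that rose, ccmFn, rps13 and rrnS passed the filter on low counts through heat libraries alone. They could not have been called lower in heat.

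The maturase gene matR, whose product takes part in splicing, lies inside an intron of nad1 in flowering plants. It had 1789, 1837 and 1765 counts in heat and 8, 20 and 22 in control, or 7.01 ± 0.12 on the log2 scale (SE; edgeR adjusted p = 5.08e-31), larger than the 5.66 of nad1. Like nad1, matR passed the filter on low counts through heat libraries alone and could not have been called lower in heat. Whether reads of this gene and of nad1 introns were kept apart by strand is not given in the sources used here.

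The tested genes nearest in profile to the mean of the 4 were nuclear. Likeness was the distance between centred log2(CPM + 0.5) values over the 6 libraries, an offset that shrinks the difference of genes near 0 in control. The nearest 5 were LOC115705788, LOC115717168, LOC115713050, LOC115723011 and LOC115722161, at distances of 0.126, 0.144, 0.156, 0.166 and 0.167, against 0.425 to 1.31 for the 4 genes from their own mean. The closest, LOC115705788, stood at 4951 ± 142 CPM in heat and 180 ± 4.41 CPM in control (SD, n = 3 each), 4.85 ± 0.04 on the log2 scale (SE; edgeR adjusted p = 1.86e-40). The fold changes of the nearest 5, 4.74 to 4.85 on the log2 scale, were thus below those fitted for the 4 genes.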

How the data were processed

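Poly(A)-selected leaf RNA was sequenced from 3 heat and 3 control libraries. The authors deposited raw read counts per gene, and the submitters' processing notes name Trimmomatic 0.39, HISAT2 2.2.1, HTSeq 2.0.5 and DESeq2. Genome build, annotation and strand use are not given in the sources used here. The authors also deposited a normalized signal, which equalled the counts times 1 factor per library: dividing by it gave whole reads (tolerance 0.01) for 100% of values, equal to the counts for all 34253 genes.

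The 5 closing rows that name no gene held 15.9% of the listed reads in heat and 11.2% in control and were left out of totals. CPM are counts per 1000000 gene counts. Gene symbols and neighbours came from the RefSeq table of ASM2916894v1, whose positions served only to order genes and to find overlaps, and no coordinates or lengths from it are given. The members and lists were chosen with earlier results of these data known.

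All 6 libraries were fitted across all genes with edgeR 4.0.16 in R 4.3.3 (filterByExpr, TMM, robust glmQLFit, two-sided glmQLFTest, Benjamini-Hochberg, threshold 0.05). The filter kept genes at 0.329 CPM or more in 3 libraries with enough reads in all. The SE is the log2 fold change over the square root of F. The fits were tested on simulated data. Within-library ratios (0.5 added to each count) and shares were compared by exact two-sided permutation tests, whose smallest p is 0.1. Intervals are exact, at 95%, and like the floors of 3 counts they cover counting error only, as reads without molecular identifiers are not independent molecules. The alternatives were other scalings, filters, DESeq2 1.42.0, limma 3.58.1 (voom, and trend on log2 of the signal + 1), a replicate block, other pseudocounts and each library left out. A fold threshold, the recovered reads and the ratios within a complex were added after the data were seen. Beside members, pathway genes, matR and neighbours, the text names the 5 genes nearest in profile.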

Additional observations from a re-analysis of the deposited data

Results flagged for a closer look

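The rows that name no gene are not part of the comparisons, and 3 of them were higher in all heat libraries than in any control library. Outside annotated exons lay 6.05% of all reads listed for heat libraries, against 1.79% for control libraries. Unaligned reads came to 3.09% in heat, against 2.43% in control. Alignments to several places came to 5.07% in heat, against 4.22% in control. Reads ambiguous between genes were lower in all heat libraries, at 1.75% in heat, against 2.73% in control.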

How the results depend on the processing

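The rises of nad1, nad4, sdh3 and cox1 kept their direction and an adjusted p under 0.05 in all 18 alternatives each, and 14 of 14 electron transport genes rose in each. Among these alternatives, the recovered reads equal the counts, so their result could not differ from the main fit. Log2 fold changes ranged from 5.31 to 5.93 for nad1, 5.89 to 6.15 for nad4, 5.26 to 6.94 for sdh3 and 5.41 to 5.71 for cox1. A fold threshold of 2 called 10419 genes, against 16075, as the question it asks is stricter. The replicate block called 15871. Deviations of same-numbered heat and control libraries from their group means were uncorrelated (r of -0.014, 0.010 and -0.0052). No shared effect by number was seen, though this check cannot show that the libraries were not paired. Without the count filter the median log2 fold change was 0.14, against -0.05, since 23298 genes were then tested. The exact permutation test of ratio differences cannot pass 0.05 at this size, so only their signs were followed. Leaving out a library gave -0.62 to 0.086 for nad1/nad4, -2.15 to 0.66 for nad1/sdh3, -0.22 to 0.43 for nad1/cox1, -1.53 to 0.57 for nad4/sdh3, -0.42 to 1.93 for sdh3/cox1 and -1.78 to 0.61 for nad1 and nad4 over sdh3 (log2). The signs turned without control replicate 2, except for nad1/cox1, which turned without control replicate 3. For nad4/sdh3 summed counts also turned the sign, to 0.12, as no pseudocount then stands in for the count of 0. The other ratios kept their sign under every alternative run. The replicate block leaves a mean difference of ratios as it is, so it could not turn a sign. Control counts of 0 to 82 per library limit the ratios among the 4 genes.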
